A study of Mus musculus with 2 samples.

Results

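The genes described here encode the potassium channels of the mouse and the subunits that assemble with them. They were chosen by symbol alone, as every protein-coding gene of the GENCODE M1 annotation of mm9 whose symbol starts with Kcn, whether or not it held an R-loop peak. This gave 96 entries with 94 symbols among 22367 protein-coding genes. Kcnb2 and Kcnh8 were each annotated under 2 gene identifiers. R-loops had been mapped by DRIP-seq in primary neural stem/progenitor cells (NSPCs) of C57BL/6 mice at postnatal day 7, cultured from the frontal brain. According to the methods, the cells had been exposed to aphidicolin, an inhibitor of replicative DNA polymerases that causes mild replication stress, whereas the sample labels name no treatment. The series holds 2 samples, the DNA recovered with the S9.6 antibody against RNA:DNA hybrids and an input of the same cells. A single list of peaks, given as positions without height or read count, was analysed, and the input was not used here. According to the methods, the libraries came from several biological replicates, with repeat DRIP reactions pooled for each library. The list is the combined result and holds no value for a single replicate, so no value below carries a replicate error, and the read depth is unknown.

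Potassium channels let potassium leave the cell along its gradient, which sets the resting potential and ends action potentials. Voltage-gated Kv channels are built from alpha subunits and can bind cytoplasmic Kv beta subunits, KChIPs or KCNE proteins. Inward rectifiers (Kir) and K2P leak channels hold the resting potential, and BK and SK channels open on calcium. An R-loop is an RNA:DNA hybrid with a displaced DNA strand, and it tends to form where the nascent RNA is rich in G and the promoter is rich in CpG. A list of R-loop peaks is not a measure of expression. Of 10 markers of neural stem and progenitor cells, 7 overlapped a peak, among them Nes, Sox2, Vim and Slc1a3, and Fabp7, Pax6 and Hes5 did not. Of the other markers looked up, 1 of 5 neuronal genes (Syn1), 3 of 6 genes of the oligodendrocyte lineage, 1 of 4 genes of microglia and blood (Csf1r) and 1 of 5 genes of hepatocytes and muscle (Apoa1) did. Over all protein-coding genes the share with a peak was 39.6%. The marker counts were not matched on gene length and were not tested.

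Stretches rich in G lie under some of the peaks in potassium channel genes. The list gives neither strand nor signal, so it does not show where within a peak the hybrid lies. In each of 6 named genes, the widest peak was searched on the coding strand for the 60 bases outside annotated UTRs in which G most outnumbers C. All 6 stretches were intronic, and capitals mark runs of at least 3 G.
Kcnip1: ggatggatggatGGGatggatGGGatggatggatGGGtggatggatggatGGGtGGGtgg
Kcnk3: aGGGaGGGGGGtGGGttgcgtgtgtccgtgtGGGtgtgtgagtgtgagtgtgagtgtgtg
Kcnj16: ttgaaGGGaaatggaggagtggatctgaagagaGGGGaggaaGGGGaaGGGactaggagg
Kcnma1: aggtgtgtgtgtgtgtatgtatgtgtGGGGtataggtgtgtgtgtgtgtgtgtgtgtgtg
Kcnu1: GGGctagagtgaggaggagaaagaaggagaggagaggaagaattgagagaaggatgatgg
Kcnc1: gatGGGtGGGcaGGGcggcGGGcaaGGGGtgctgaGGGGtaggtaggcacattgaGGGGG
On mm9 these are chr11:33628022-33628081 (minus strand) in Kcnip1, chr5:30891449-30891508 (plus strand) in Kcnk3, chr11:110865331-110865390 (plus strand) in Kcnj16, chr14:24621489-24621548 (minus strand) in Kcnma1, chr8:27045647-27045706 (plus strand) in Kcnu1 and chr7:53690774-53690833 (plus strand) in Kcnc1. The stretch in Kcnip1, a repeat of a short GGAT unit, held 35 G and 0 C. The stretch in Kcnma1, mostly GT repeats, held 29 G and 0 C and began 978 bp after the TSS. The Kcnk3 stretch held 34 G and 3 C, 906 bp from the TSS. The Kcnc1 stretch also held 35 G, but with 7 C, and had 7 runs of G. These 6 were chosen for their excess and are not typical. Over the 60 peaks in Kcn genes the largest excess in 60 bases had a median of 22.5, compared to 23 over all pairs of a protein-coding gene and a peak, with UTRs included in both.

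R-loop peaks overlapped 34 of the 96 potassium channel genes, or 35.4%, compared to 39.6% of all protein-coding genes, so the plain share lay near the background. Kcn genes are, however, longer and richer in GC at the promoter than most genes. Their median length was 27.5 kb and their median GC content within 2 kb of the TSS 52.1%, whereas all protein-coding genes had medians of 15.4 kb and 48.0%. To take this into account, each member was set beside the other protein-coding genes that fell in the same of 10 equally filled bins of gene length and the same of 10 equally filled bins of promoter GC content. These are called like genes here, and there were 74 to 306 for each member with a median of 227. The share of like genes with a peak, summed over the 96 members, came to 53.2 genes, or 55.4%. The observed number was 0.64 of that. This sum is a description of the list, and the difference was not tested. The members held 60 peaks, compared to 131.2 for like genes. Peaks covered 1.04% of the bases of members, compared to 3.81% of the bases of all protein-coding genes. These shares of bases were not matched on length or promoter GC content. Of the members with a peak, 25 had a single one, 8 had 2 to 4 and 1, Kcnd3, had at least 5. That last share, 1.04%, compares to 2.73% of all protein-coding genes and to 6.3 members for like genes.

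Observed and like-gene numbers lay furthest apart in the shorter members. Of 27 members under 10 kb, 4 had a peak where like genes gave 9.6, and of 34 members of 10 to 50 kb, 9 had a peak where like genes gave 20.1. Between 50 and 200 kb the numbers were 9 of 18 and 12.2. Of the 17 members of at least 200 kb, 12 had a peak, where like genes gave 11.3. The top bin of length has no upper limit, so the longest members were matched on length only loosely. Kcnd2 (514 kb) and Kcnk2 (136 kb), for example, had the same 282 like genes. Like genes of the longest members can thus be much shorter than they are. Members with a peak had a median length of 76.2 kb and members without one 15.0 kb. Promoter GC content differed less, with medians of 53.5% and 51.7%. By promoter GC content, 3 of 11 members under 45% had a peak compared to 3.1 for like genes, 20 of 60 members of 45 to 55% compared to 32.9, and 11 of 25 members of at least 55% compared to 17.3. Whether the difference from like genes varies with length or GC content was not tested.

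**Figure D1:**
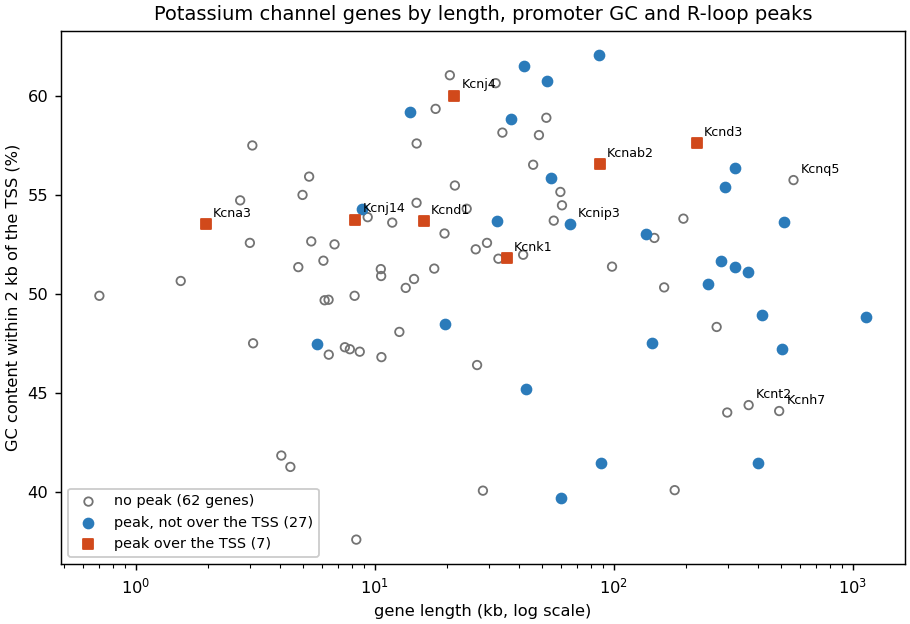
Each point is 1 of the 96 potassium channel genes, placed by gene length (kb, log scale) and GC content within 2 kb of the TSS (%). Open circles are the 62 genes without a peak, filled circles the 27 with a peak elsewhere than over the TSS and squares the 7 with a peak over the TSS, and 12 of the 17 genes of at least 200 kb had a peak compared to 4 of the 27 under 10 kb.

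The largest class, the alpha subunits of voltage-gated channels, had a peak in 14 of 42 genes, where like genes gave 23.9. The silent subunits, which form no channel of their own but modify Kv2 channels, were without a peak altogether. None of the 10 (Kcnf1, Kcng1, Kcng2, Kcng3, Kcng4, Kcns1, Kcns2, Kcns3, Kcnv1 and Kcnv2) overlapped a peak, where like genes gave 5.1. The Kv1 genes, which encode delayed rectifiers and A-type channels of axons, had a peak in Kcna3 and Kcna6 among 8 genes (3.6 for like genes). Of the 9 entries of the EAG, ERG and ELK family, only Kcnh1 and Kcnh5 of the EAG branch held a peak, each a single intronic one of 0.473 and 0.828 kb, where like genes gave 5.0.

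Outside the voltage-gated class, 5 of 15 inward rectifiers had a peak (Kcnj4, Kcnj6, Kcnj14, Kcnj15 and Kcnj16, 7.4 for like genes). Kcnj10, which encodes the Kir channel of glia, held none, although a peak lay 1182 bp from its TSS outside the gene. Among the 14 K2P genes, 5 had a peak (Kcnk1, Kcnk2, Kcnk3, Kcnk4 and Kcnk10, 8.7 for like genes), and each of them had a single one, so the family held 5 peaks in all. The class labelled calcium-activated and sodium-activated channels had a peak in 4 of 8 genes (Kcnma1, Kcnn2, Kcnt1 and Kcnu1, 4.7 for like genes). This class was set by gene symbol and takes in Kcnu1 with its family, which says nothing about what opens that channel. The auxiliary subunits had a peak in 6 of 16 (8.5 for like genes). These were Kcnip1, Kcnip3 and Kcnip4 of the 4 KChIP genes, Kcnab2 of 3 Kv beta genes, Kcne2 of 5 KCNE genes and Kcnmb3 of 4 genes for BK beta subunits. Kcnrg, a regulator and not a channel, held none. The families hold 1 to 15 genes, and no family was tested against another.

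**Figure D2:**
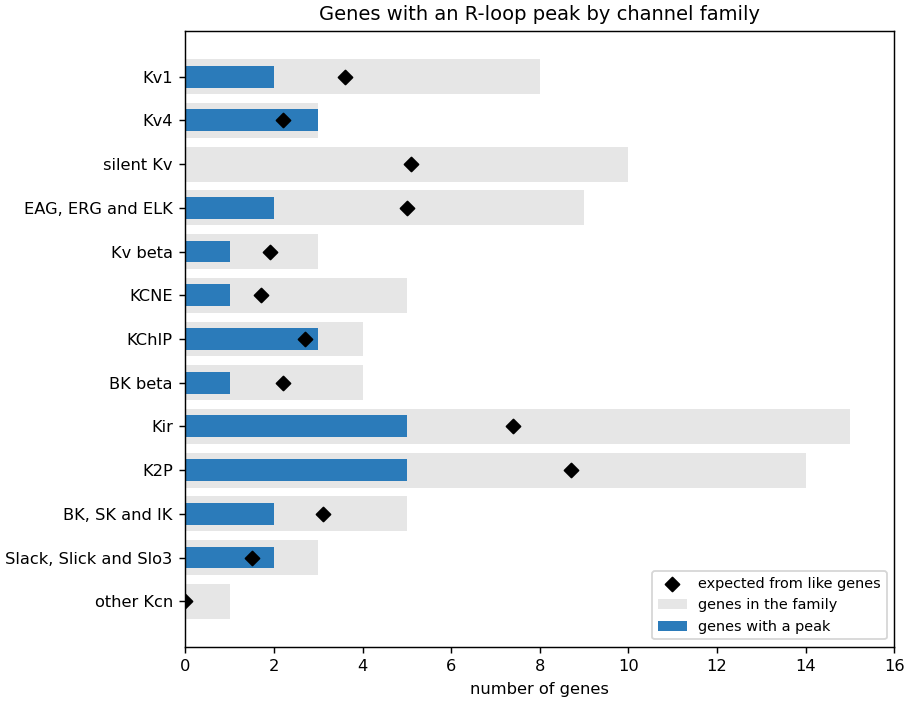
Pale bars give the number of genes in each channel family drawn, dark bars the number with an R-loop peak and diamonds the number given by genes alike in length and promoter GC content. The dark bar ends short of the diamond in most families, is absent for the 10 silent Kv genes and passes the diamond for Kv4, the KChIPs and the family of Slack, Slick and Slo3. Some families are not drawn.

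The Kv4 genes, whose A-type channels are opened below threshold and shape dendritic signals, were the family in which every gene had a peak (3 of 3, 2.2 for like genes). They held 15 peaks, of which 13 lay in Kcnd3. Kcnd3 (ENSMUSG00000040896) spans chr3:105255248-105476920 on the plus strand, 222 kb. Its peaks covered 29.8 kb, or 13.5% of the gene, and made up 29.4% of the 101 kb covered in all members together. They ranged from 0.389 to 9.16 kb, and 8 of them were at least 1 kb wide. The peak chr3:105254496-105256658 lay over the TSS and also over the noncoding gene 1700095B22Rik. Along the transcript Kcnd3-002, which has 7 exons, 1 further peak lay in intron 1, 10 lay in intron 2 and 1 on the last exon. The widest, chr3:105279875-105289035, lay in intron 2 about 29 kb downstream of the TSS. Of the 288 like genes of Kcnd3, 17, or 5.9%, had at least as many peaks, and the median of the 288 was 3. These like genes come from the open top bin of length and also served for Kcnq5 at 564 kb. The rank of Kcnd3 is therefore only loosely matched on length.

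Kcnd2 is longer than Kcnd3, at 514 kb, and held a single peak of 0.319 kb, the narrowest in any member, in intron 1 and 437 kb from the TSS. Kcnd1, on chromosome X, is 16.0 kb long and was reached by 215 bp of a 5.04 kb peak that also overlapped its neighbour Gripap1 and covered the Kcnd1 TSS, and the midpoint of this peak lay outside the gene. The promoters of the 3 genes are printed because a peak covered the TSS of Kcnd1 and Kcnd3 and not that of Kcnd2. Shown are the 100 bases upstream of each gene start on the coding strand, with CpG in capitals.
Kcnd1: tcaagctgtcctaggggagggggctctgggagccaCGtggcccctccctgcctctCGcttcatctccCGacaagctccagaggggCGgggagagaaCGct
Kcnd2: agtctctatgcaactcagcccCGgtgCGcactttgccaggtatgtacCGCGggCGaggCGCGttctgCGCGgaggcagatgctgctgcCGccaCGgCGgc
Kcnd3: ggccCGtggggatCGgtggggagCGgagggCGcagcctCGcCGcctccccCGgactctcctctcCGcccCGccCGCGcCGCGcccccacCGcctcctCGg
On mm9 they are chrX:7399315-7399414, chr6:21165403-21165502 and chr3:105255148-105255247, all on the plus strand. The Kcnd3 promoter held 15 CpG at 83% GC, the Kcnd2 promoter 12 CpG at 68% GC and the Kcnd1 promoter 5 CpG at 67% GC. The median over all protein-coding genes was 4 CpG in this window, and 23.1% had at least 10. The Kcnd2 promoter, without a peak, was thus among the CpG-rich ones too. These promoters were chosen for printing after their peaks were known.

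The KChIPs are calcium-binding proteins that assemble with Kv4 channels, and Kcnip3 also encodes the transcriptional repressor DREAM. Kcnip3 (chr2:127282234-127347830, minus strand, 65.6 kb) had 4 peaks that covered 10.6% of the gene, all in intron 2 of the 9-exon transcript Kcnip3-001. They measured 0.767, 3.42, 1.38 and 1.39 kb, and the TSS lay 22.2 kb away from the nearest. The peaks chr2:127311547-127312313 and chr2:127312315-127315729 nearly touch, and chr2:127316648-127318027 starts less than 1 kb further on. These join when peaks closer than 1 kb are merged, which left 58 peaks in all members, so the count of 4 depends on how peaks are split. Kcnip1 (364 kb) held 3 narrow intronic peaks of 0.399 to 0.995 kb, and so 0 of at least 1 kb. The widest carries the GGAT repeat printed above. Kcnip4, the longest member at 1135 kb, held a single peak of 2.71 kb near its TES. Kcnip2 (24.2 kb) had none.

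**Figure D3:**
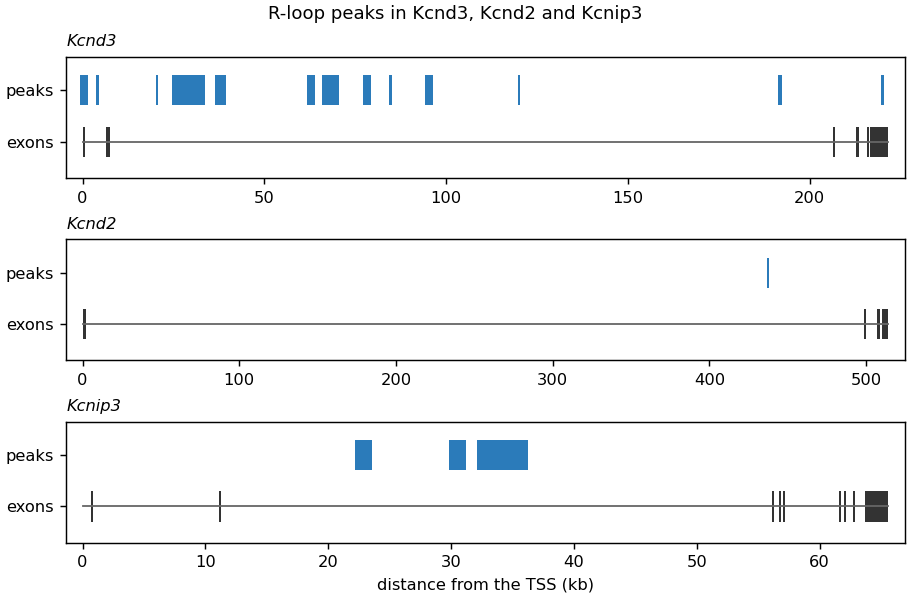
Exons (dark boxes) and R-loop peaks (blue boxes) of Kcnd3, Kcnd2 and Kcnip3 are drawn against the distance from the TSS (kb), with narrow features widened to stay visible and peaks less than a line apart drawn as touching. Kcnd3 has 13 peaks, 10 of them in intron 2, Kcnd2 has 1 peak far from its start and the 4 peaks of Kcnip3 lie in intron 2.

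Kcnma1, Kcnq1, Kcnj16 and Kcnu1 also had several peaks, all of them intronic. Kcnma1, the alpha subunit of BK channels, carried 3 peaks in 505 kb, which covered 0.511% of it, and the first began 543 bp after the TSS. Kcnq1, which lies in an imprinted domain, carried 3 intronic peaks of 0.505, 1.11 and 0.656 kb in 320 kb. Kcnj16 had 2 and Kcnu1 had 2, and 27.3% of their like genes had a peak. Counting peaks from 1 kb upwards, Kcnma1, Kcnq1 and Kcnu1 had 1 each and Kcnj16 had 0. Kcnu1 encodes the Slo3 channel of sperm. Kcnj4 differed in that 3 peaks fell on a gene of 21.5 kb, 1 over the TSS, 1 in an intron and 1 over the TES, and together they covered 9.57% of it.

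Wide peaks lay in a handful of members. The widest, 14.9 kb at chr7:53684195-53699110, ran from 32.3 kb after the TSS of Kcnc1 past its TES and into Sergef, and covered 22.8% of Kcnc1. Kcnt1, the sodium-activated Slack channel, was touched at its TES by a peak of 6.93 kb. Kcna6 had a peak of 5.62 kb, chr6:126683489-126689105, that began 1575 bp from its TSS, covered 17.4% of the gene and also overlapped the lincRNA Gm17456. Kcnk3, an acid-sensitive leak channel, had a peak at chr5:30890808-30895604 that began 265 bp after the TSS and covered 12.9%.

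Other members with a single peak had it inside the gene. In Kcnn2, an SK channel of 417 kb, a peak of 1.28 kb with 66.5% GC lay far from the annotated gene start but over the starts of 2 shorter transcripts. The intronic peak of Kcnk4, a mechanosensitive leak channel, was similar in composition, with 65.9% GC over 0.618 kb, and lay close to the TSS. Kcnq3, a subunit of the neuronal M-channel, had an intronic one of 1.73 kb. Kcnj6 and Kcnj15 had intronic peaks of 2.08 and 2.19 kb. The intronic peaks of Kcnk2 (0.586 kb), Kcnk10 (0.363 kb) and Kcnmb3 (0.377 kb) were under 1 kb. So was the peak of Kcne2 (0.903 kb), which lay in intron 1 of the transcript Kcne2-001 and over the start of Kcne2-002. Kcnk2, Kcnk4, Kcnk10, Kcnmb3 and Kcne2 thus dropped out when peaks under 1 kb were left aside.

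**Figure D4:**
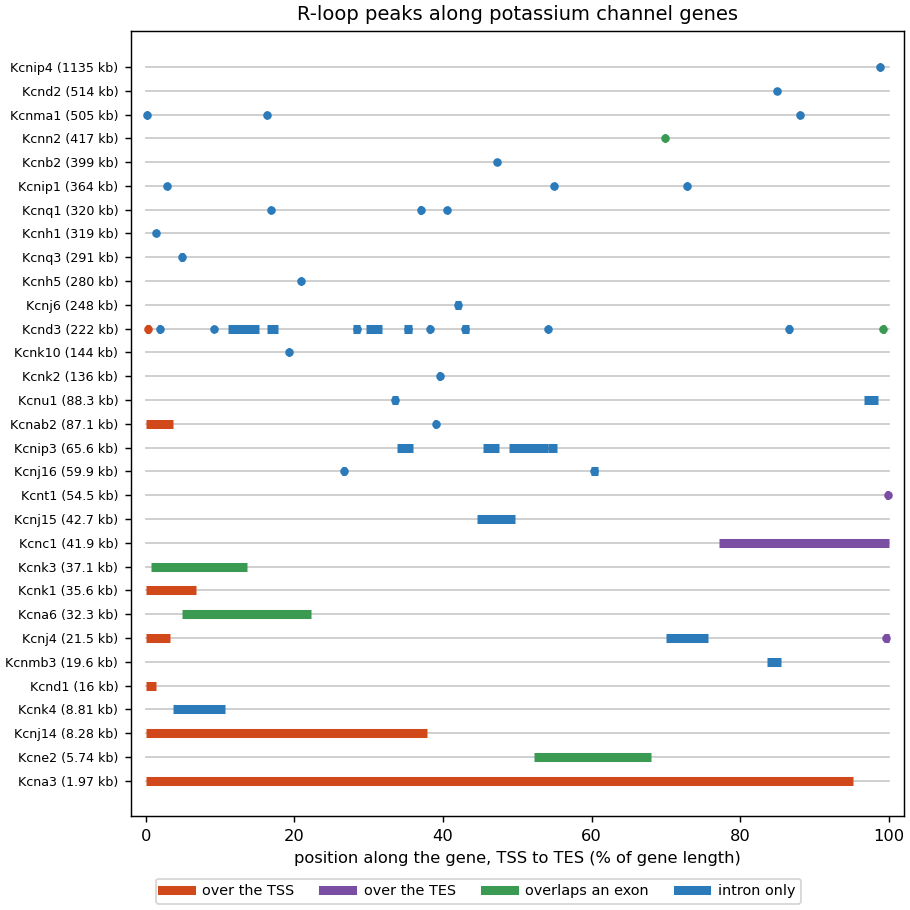
Each line is a member with a peak, ordered by length, from TSS (0%) to TES (100% of gene length). Bars show the part of the gene that a peak covers, with a dot at its centre so that narrow peaks stay visible, and colours give the place of the peak. Kcnd3 carries 13 peaks along the gene, while the peak of Kcna3 covers nearly all of it.

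Peaks over gene starts were few. The TSS of 7 members, or 7.29%, lay in a peak, compared to 14.9% of all protein-coding genes and to 21.6 members for like genes. The members were Kcnd3, Kcnab2, Kcnj14, Kcnk1, Kcnj4, Kcna3 and Kcnd1. Kcna3, the Kv1 channel best known from T lymphocytes, is 1.97 kb long, and a peak of 2.43 kb covered its TSS and 95.3% of the gene. Kcnab2, a Kv beta subunit, had a peak of 3.22 kb over its TSS, which also covered the TSS of the neighbouring Nphp4. Kcnj14 had one of 4.54 kb, which reached into Grwd1, Kcnk1 had one of 2.56 kb and Kcnj4 had one of 0.852 kb. Counting a peak within 2 kb of the TSS gave 14 members (14.6%), compared to 22.2% of all protein-coding genes and to 31.5 members for like genes. Kcnk3, Kcnk4, Kcnma1, Kcna6, Kcne2 and Kcnj10 were among those added, Kcne2 and Kcnj10 through a peak outside the gene. The TES of 4 members, or 4.17%, lay in a peak, with Kcnc1, Kcnj4 and Kcnt1 among them, compared to 10.9% of all protein-coding genes and to 13.4 members for like genes. Within 2 kb of the TES the numbers were 9 members (9.38%), compared to 21.8% of all protein-coding genes and to 26.7 members for like genes.

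Most peaks in members were intronic. The 60 peaks had a median width of 1.22 kb, compared to 1.68 kb for the 16451 peaks in protein-coding genes, and 32 of them, or 53.3%, were at least 1 kb wide, compared to 66.9%. Of the 60, 43, or 71.7%, lay in introns alone, compared to 41.1% of the pairs of gene and peak over all protein-coding genes. A further 6 overlapped an internal exon (10.0% compared to 29.4%), 7 the TSS (11.7% compared to 16.1%) and 4 the TES (6.67% compared to 11.2%). These widths and shares were not matched on gene length and were not tested. Members with a peak had a median length of 76.2 kb, compared to 27.4 kb for all protein-coding genes with a peak. Kcnd3 and Kcnip3 gave 15 of the 43 intronic peaks. The median GC content of the peaks was 49.4%, close to the 49.5% of all peaks in protein-coding genes. Of the 120 peak edges, 31, or 25.8%, had a recognition site for any of the 5 restriction enzymes no more than 100 bp away, compared to 29.1%. A peak shared with another protein-coding gene was found in Kcnab2, Kcnc1, Kcnd1 and Kcnj14, and a list without strand cannot assign such a peak to either gene.

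GC skew was measured in the 1 kb after each TSS as (G − C)/(G + C) of the coding strand. Members with a peak had a median of 0.0119 and members without one 0.0363. Over all protein-coding genes the order was the opposite, with 0.0544 for genes with a peak and 0.0281 for genes without. The skew was positive in 20 of 34 members with a peak (58.8%), in 42 of 62 without (67.7%), and in 2 of the 7 with a peak over the TSS. Whether this order differs between Kcn genes and the rest was not tested.

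Several of the longest members had no peak. Kcnq5, a Kv7 channel of the brain, spans 564 kb with a promoter GC content of 55.8%, and 82.6% of its 288 like genes had a peak, with a mean of 4.16 peaks. The nearest peak lay 44319 bp outside Kcnq5. Most like genes also had a peak for Kcnc2 (195 kb, 78.7% of them), Kcnj3 (162 kb, 68.1%) and Kcnab1 (269 kb, 61.8%), which had none. Kcnh7 (491 kb), Kcnt2 (366 kb) and Kcnmb2 (298 kb) have promoters under 45% GC, and 48.7% of their like genes had a peak. Kcnh8 (179 kb) was next, with 42.5%. These longest members without a peak fall in the open top bin of length, so their like genes were matched on length only loosely. For Kcnt2 and Kcnj3 the nearest peak lay 791051 and 570307 bp away. Of the 62 members without a peak, 18 lay within 10 kb of one and 13 over 100 kb away, and the median distance was 33.7 kb. At the other end, the shortest members with a peak were Kcna3 (1.97 kb), Kcne2 (5.74 kb), Kcnj14 (8.28 kb) and Kcnk4 (8.81 kb).

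Other genes of neuronal excitability were counted the same way, from lists written with earlier results of these data known. Voltage-gated sodium channels had a peak in 7 of 14 genes, where their like genes gave 7.2, and voltage-gated calcium channels in 18 of 26, where like genes gave 17.4, with 14 peaks in Cacna1a alone. Ionotropic glutamate receptors had a peak in 10 of 18 (12.5 for like genes), HCN channels in 3 of 4 (2.6) and GABA-A receptors in 4 of 19 (9.2). Of 12 partners of potassium channels with other symbols, 5 had a peak (6.7), among them Ank3 with 14 peaks and Dpp6, a partner of Kv4 channels, with 2. Keratins, markers of epithelia, had a peak in 1 of 46 genes, where like genes gave 17.7. The ratio of the number observed to that of like genes was 0.64 for potassium channels, 0.43 for GABA-A receptors, 0.74 for the partners, 0.8 for glutamate receptors, 0.98 for sodium channels, 1.03 for calcium channels, 1.17 for HCN channels and 0.06 for keratins. Potassium channels were thus not the only list below its like genes. The lists were not tested against each other, and transcription of the genes was not analysed here.

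**Figure D5:**
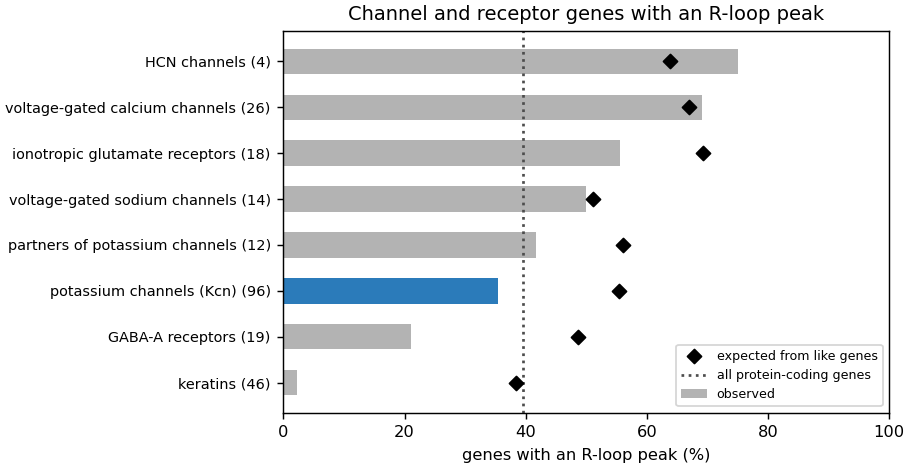
Bars give the share of genes with an R-loop peak (%) in each list, with the number of genes in brackets, diamonds the share given by genes alike in length and promoter GC content and the dotted line the 39.6% of all protein-coding genes. Potassium channels reach 35.4% where like genes give 55.4%, while sodium and calcium channels lie close to their diamonds.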

How the data were processed

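NSPC DRIP-seq reads were trimmed with Trim Galore 0.6.6, aligned to mm9 and freed of duplicates by the authors, who called peaks with a Hidden Markov Model. The deposited file gives peak positions in base pairs only, without signal, score or counts. The list combines several biological replicates, with repeat DRIP reactions pooled for each library, and the rule by which replicates were combined is not given in the sources used here. Peaks were placed on GENCODE M1 genes with an overlap of at least 1 bp. Like genes shared 1 of 10 equally filled bins of length and 1 of 10 of GC content, the latter measured to 2 kb on each side of the TSS. The top bin of length had no upper limit. No test was made, since there was 1 list. Members and lists were chosen with earlier results of these data known. Named members were the 12 with the most peaks, those with a TSS in a peak, the 8 longest without a peak and the 4 shortest with one. Family members named beside a count, printed promoters, repeats and Kcnb2 were chosen after their values were seen. Results for some members are not reported here. Sequences came from the mm9 genome, outside UTRs. The overlap and summation steps were tested on simulated data. Python 3.11.15, numpy 2.4.6, pandas 2.3.3, scipy 1.17.1 and matplotlib 3.10.9 were used. Alternatives covered peak width, merging, autosomes, overlap rules, strata and distance from gene ends.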

Additional observations from a re-analysis of the deposited data

How the results depend on the processing

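The number of members with a peak divided by the number from like genes ran from 0.51 to 0.68 over the alternatives. Keeping only peaks of at least 1 kb lowered the members with a peak to 22, where like genes gave 43.3, and the peaks in them to 32. Counting peaks within 2 kb raised the TSS count to 14, where like genes gave 31.5, and the TES count to 9, where like genes gave 26.7. Of the alternatives for these counts, 47 moved them by up to 1.5 times and 4 by more. For the peak counts of single named genes, 66 stayed within 1.5 times and 12 did not. Kcnip1, Kcnj16, Kcne2 and Kcnk4 had 0 peaks of at least 1 kb, and Kcnd1 had 0 by peak midpoint. Counting each symbol once and leaving out peaks over the TSS of another gene were chosen after seeing the data and left 34 members with a peak. No paired analysis was possible because 1 peak list was analysed. Without read counts, weak R-loops cannot be told apart from absent ones.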

Other observations

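Over whole peaks, the coding strand held more G than C in 27 of the 60 peaks in potassium channel genes (45.0%), compared to 64.1% of all pairs of a protein-coding gene and a peak. For peaks in introns alone the shares were 48.8% and 61.9%. The far end of this range was the single peak of Kcnb2, a delayed rectifier, 378 bp wide in an intron about 189 kb from the TSS. Its coding strand held 216 C, 156 T, 4 A and 2 G. The last 60 bases of that peak, chr1:15491262-15491321 on the plus strand of mm9, are printed with C in capitals.
Kcnb2: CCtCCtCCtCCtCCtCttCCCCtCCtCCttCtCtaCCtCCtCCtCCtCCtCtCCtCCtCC
The stretch held 38 C and 0 G on the coding strand, so that the G-rich strand is the template. Both measures were chosen after seeing the data and were not tested.

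Perfect tandem repeats with a unit of 1 to 4 bases and a length of at least 30 bases lay in 18 of the 43 intronic peaks of potassium channel genes (41.9%), in 10 of the windows of equal width before these peaks (23.3%) and in 13 of those after them (30.2%). For all intronic peaks of protein-coding genes the shares were 33.6%, 17.8% and 19.2%. Before and after follow the genome coordinates and not the direction of the gene. The windows were not cleared of other peaks and can lie within one, as in Kcnip3. The longest in a member was a repeat of 69 bases in the peak of Kcnj6, with the unit GAA on the plus strand and the gene on the minus strand. Kcnj6 encodes a G protein-gated Kir channel. This measure was also chosen after seeing the data. The part of repeats in the peaks was not tested.

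Of 10 pairs of neighbouring members less than 200 kb apart, 5 had a peak in 1 gene of the pair, 5 in neither and 0 in both. Taken singly, 35.4% of members and 39.6% of all protein-coding genes had a peak. Kcna1 and Kcna2 each belong to more than 1 pair. Neighbouring pairs of all protein-coding genes were not counted, so these numbers have no background, and they were not tested. Kcnj16 had 2 peaks and Kcnj2, 38.2 kb away, had 0. Kcne2 had 1 and Kcne1, 47.9 kb away, had 0. In the Kv1 cluster on chromosome 3, Kcna3 had 1 peak and Kcna2 and Kcna10 had 0, and in the cluster on chromosome 6, Kcna6 had 1 and Kcna1 and Kcna5 had 0. Kcnmb1 lies within Kcnip1 and overlapped none of its 3 peaks.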
